A study of Mus musculus with 6 samples.

Results

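The BMP response genes described here are Id1, Id2, Id3, Id4, Msx1, Msx2, Bambi, Smad6 and Smad7, which were chosen by symbol as known transcriptional outputs of bone morphogenetic protein (BMP) signalling. All 9 were found, each as 1 entry, among 49452 genes of a table from forelimb bud ectoderm of mouse embryos at E10.5. The comparison was between 3 Sp8 null embryos and 3 wild-type embryos, and each library held the ectoderm of both forelimbs of 1 embryo, freed from the bud by digestion on ice (20 min in 0.25% trypsin). Wild-type embryos came from matings of C57BL/6 inbred mice. Sp8 null embryos came from matings of mice heterozygous for the Sp8-Cre-ERT2 allele, so they had that allele from both parents, and the labels give C57BL6J as the background of both groups. Genotype and parental cross coincide in this design, and their effects cannot be told apart. RNA was polyadenylated RNA from the whole ectoderm, in which fewer cells of a type and less RNA per cell cannot be told apart.

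BMP ligands bind paired type I and type II serine/threonine kinase receptors, which phosphorylate Smad1, Smad5 and Smad9. These join Smad4 in the nucleus and turn on direct targets, among them the Id genes, whose proteins bind E proteins and keep them from DNA, and the Msx homeobox genes. The same signal induces its own brakes: Bambi is a transmembrane pseudoreceptor without a kinase domain, and Smad6 and Smad7 are inhibitory Smads that block receptor signalling. In the limb bud, BMP signalling in the ectoderm acts in forming the apical ectodermal ridge and in dorsoventral patterning, and Msx2 is a classical ridge marker. Sp8, which encodes a protein with zinc fingers that binds GC-rich DNA, is active in limb ectoderm and is needed to maintain the ridge.

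Levels are in FPKM, fragments scaled by transcript length and by the mapped total, which allows comparison between genes of different length. Relative to wild-type embryo 1, depth estimated from the lowest values lay between 0.847 and 1.04 in the other libraries, and 11835 to 12245 genes reached 1 FPKM. One mitochondrial tRNA gene, mt-Tl1, took 48.4 to 96.1% of summed FPKM, a share that differed between libraries of the same group. Sp8 itself, the check of the labels, reached 8.35 to 13.5 FPKM in wild type and 0.460 to 1.14 FPKM in the null embryos. A gene was tested with limma on log2(FPKM + 1) if 3 or more libraries reached 1 FPKM, and it is called different at a Benjamini-Hochberg adjusted p under 0.05 over all 12133 tested genes. Of these, 625 (5.15%) were called lower and 204 (1.68%) higher in Sp8 null. Scaling between libraries changed that split, to 541 lower and 323 higher under median-of-ratios scaling, to 501 and 363 under upper-quartile scaling, and to 334 and 276 when libraries were scaled to surface epithelium genes. The libraries are separate embryos per the labels, and p-values measure the spread between embryos.

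The level of all 9 genes was lower in every Sp8 null embryo than in any wild-type embryo. With limma, 7 of the 9 were called lower (Id1, Id2, Id3, Id4, Msx1, Msx2 and Bambi), against 5.15% of all tested genes called lower, and Smad6 and Smad7 did not pass. In Sp8 null, mean FPKM was 6.97% of the wild-type mean for Bambi, 28.8% for Msx2, 30.1% for Id1, 34.5% for Id4, 34.9% for Msx1, 39.5% for Id3, 58.4% for Smad6, 58.9% for Id2 and 71.7% for Smad7. Groups that do not overlap with Sp8 null lower were found for 21.1% of tested genes. The median log2 fold change of the 9 was -1.23, and that of all tested genes was -0.06. Bambi, Id4 and Smad6 reached 1 FPKM in wild-type libraries only, so that their passing the filter already required a difference between the groups, and counts over the 9 genes are no support for it. With no filter, when 27766 genes were tested, 5 of the 9 were called lower (Id1, Id3, Msx1, Msx2 and Bambi), against 0.958% of all genes. That set takes in genes of very low level, so its share is not a like background for the 9. When a mean of at least 5 FPKM was required, 487 of 7412 tested genes were called lower. So were all 5 members that this filter kept (Id1, Id2, Id3, Msx1 and Msx2).

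**Figure D1:**
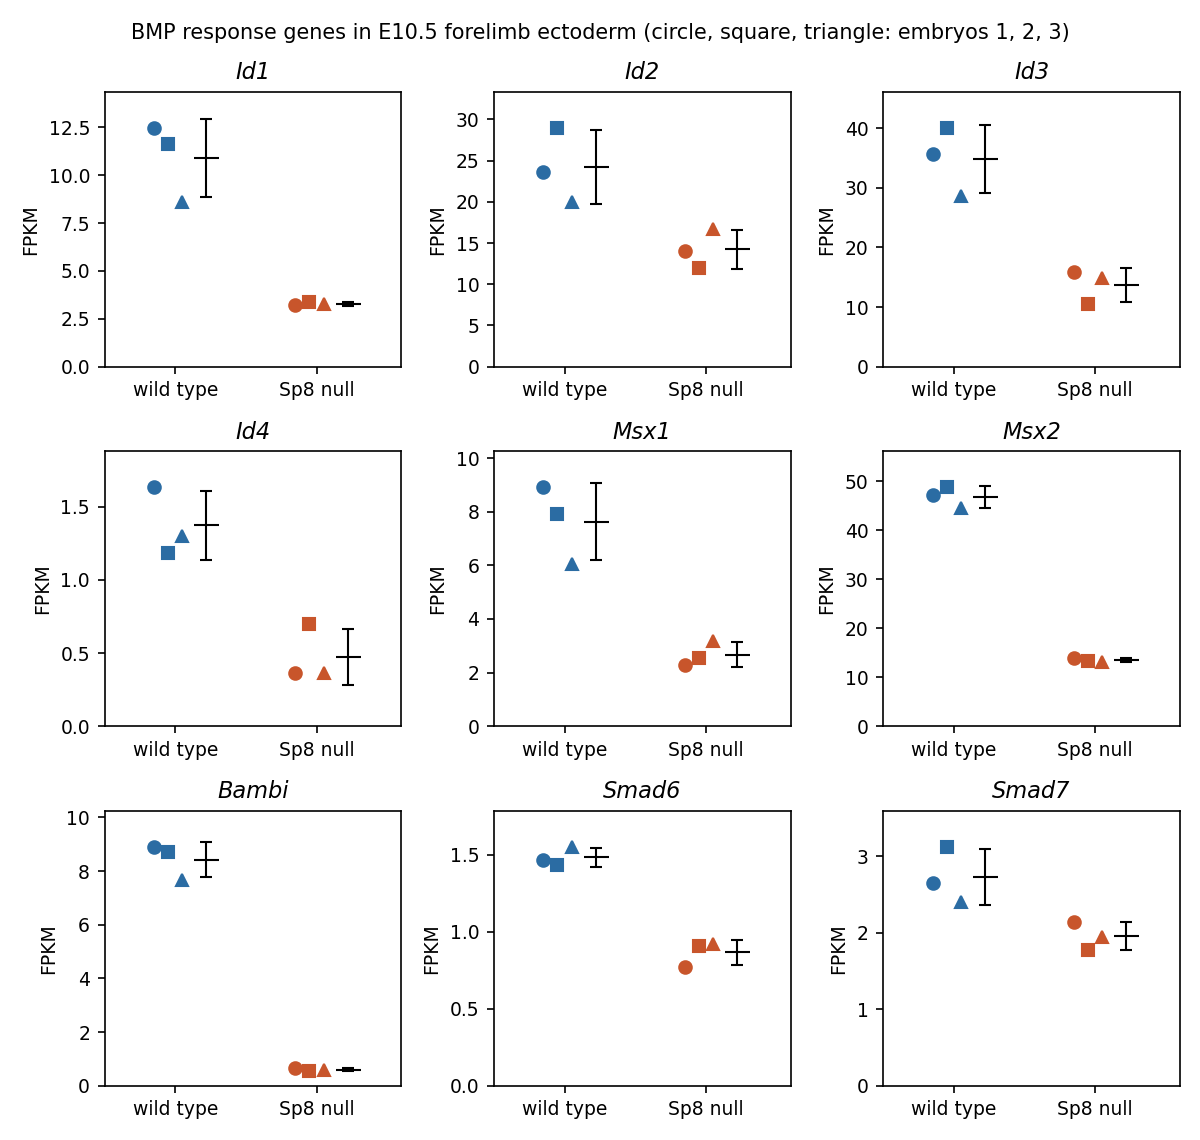
FPKM of each gene (vertical axes, each starting at 0) in 3 wild-type (blue) and 3 Sp8 null (orange) embryos, with circle, square and triangle for embryos 1, 2 and 3 and the black bar for the mean with its SD. In every panel the 3 orange points lie below the 3 blue ones, with the widest gap relative to level for Bambi and the narrowest for Smad7.

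Promoter sequence is shown for the 3 members whose stretch of 250 bases before the RefSeq start overlaps no annotated exon, and these 3 include genes called lower (Id4 and Msx1) and one that was not (Smad6). RefSeq windows on GRCm38.p6 were at hand for 6 of the 9 genes (Id2, Id3, Id4, Msx1, Msx2 and Smad6). Capitals mark matches, on either strand, to the GC box GGGCGG, a motif of Sp family proteins, and to the GC-rich Smad elements GGAGCC and GGCGCC. Matches may touch or overlap, and the GGCGCC of Id4 lies next to a GC box.
Id4 (chr13:48260866-48261115, plus strand): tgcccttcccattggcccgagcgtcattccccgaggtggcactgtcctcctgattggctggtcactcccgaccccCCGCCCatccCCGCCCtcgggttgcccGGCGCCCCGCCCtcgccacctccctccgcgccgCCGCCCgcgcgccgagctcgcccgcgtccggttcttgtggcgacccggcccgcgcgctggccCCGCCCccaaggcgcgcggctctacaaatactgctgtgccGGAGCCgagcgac
Msx1 (chr5:37824586-37824835, minus strand): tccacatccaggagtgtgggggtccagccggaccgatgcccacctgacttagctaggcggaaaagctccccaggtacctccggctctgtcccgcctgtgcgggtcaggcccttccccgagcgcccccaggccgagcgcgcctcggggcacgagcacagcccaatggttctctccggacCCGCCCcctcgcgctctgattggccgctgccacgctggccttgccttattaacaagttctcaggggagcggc
Smad6 (chr9:64022060-64022309, minus strand): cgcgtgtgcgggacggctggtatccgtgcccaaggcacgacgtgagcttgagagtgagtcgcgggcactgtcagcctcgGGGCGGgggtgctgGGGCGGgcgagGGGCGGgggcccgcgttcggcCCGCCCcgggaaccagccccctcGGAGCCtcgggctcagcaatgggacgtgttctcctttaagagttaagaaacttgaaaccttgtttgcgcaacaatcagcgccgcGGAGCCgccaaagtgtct
The Id4 window held 5 GC boxes, that of Msx1 held 1 and that of Smad6 held 4. GGAGCC was found 1 time in Id4, 2 times in Smad6 and not in Msx1, and GGCGCC was found in Id4 alone of these 3. Over all 6 windows, the GC box was present in 6, GGAGCC in 5, GGCGCC in 2 and the Smad palindrome GTCTAGAC in 0. Of 32851 windows of the same length at RefSeq starts, 32.7% held a GC box, 26.0% GGAGCC, 9.59% GGCGCC and 0.167% the palindrome. A match describes the letters of the window and says nothing of binding.

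The Id genes encode helix-loop-helix proteins without a DNA-binding region. Id1 (ENSMUSG00000042745; GRCm38, chromosome 2, 152736251 to 152737410) was at 12.5, 11.6 and 8.62 FPKM in wild-type embryos 1, 2 and 3 and at 3.20, 3.38 and 3.27 FPKM in Sp8 null embryos 1, 2 and 3. The null libraries sat within a narrow band, with a coefficient of variation of 2.78%, while the wild-type libraries spread by 18.6%. Id1 fell from 10.9 ± 2.03 to 3.29 ± 0.0914 FPKM (SD, 3 embryos each, a log2 difference of -1.46, SE 0.13, adjusted p in limma = 0.00113). Id3 (ENSMUSG00000007872; chromosome 4, 136143497 to 136145755) was the most abundant Id gene in wild type, at 35.6, 40.1 and 28.7 FPKM, and was at 15.8, 10.53 and 14.8 FPKM in Sp8 null. Its groups were clearly apart, and Id3 fell by 1.29 on the log2 scale (SE 0.17, adjusted p in limma = 0.00617).

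Id2 (ENSMUSG00000020644; chromosome 12, 25093799 to 25097140) lies on the chromosome that also carries Sp8 (118846329 to 118852576). It was at 23.6, 28.98 and 20.04 FPKM in wild type and at 14.0, 11.99 and 16.7 FPKM in Sp8 null. The lowest wild-type embryo, 3, and the highest null embryo, also 3, were the closest pair. Id2 fell by 0.72 on the log2 scale (SE 0.16, adjusted p in limma = 0.0384), and this call was lost without Sp8 null embryo 1 (adjusted p in limma = 0.1003), Sp8 null embryo 2 (0.0936), wild-type embryo 1 (0.0942) or wild-type embryo 2 (0.1301). It was also lost with no filter (0.1311), with the first number of the sample name as a model term (0.0648) and with no mean-variance trend (0.0527). Id4 (ENSMUSG00000021379; chromosome 13, 48261228 to 48266026) was low throughout, at 1.63, 1.18 and 1.30 FPKM in wild type and at 0.361, 0.698 and 0.361 FPKM in Sp8 null. Embryo 2 was the lowest wild-type library and the highest null library, and the groups still did not overlap. Id4 fell by 0.69 on the log2(FPKM + 1) scale (SE 0.14, adjusted p in limma = 0.0343), a value held down by the added 1, since mean FPKM was 2.90 times as high in wild type. This call was lost without Sp8 null embryo 1 (adjusted p in limma = 0.0954) or 3 (0.0764), and with a pseudocount of 0.1, at which the log2 fold change was -1.40 (adjusted p in limma = 0.0504). It was also lost with no filter (0.101), under surface epithelium scaling (0.0674) and with the first number of the sample name as a model term (0.0595). With the tested genes kept it was also lost without any single wild-type embryo (adjusted p in limma = 0.0754 to 0.105). Exons of Id4 overlap those of 2 noncoding genes on the other strand, A330033J07Rik and Gm49291, and the use of strand in counting is not given in the sources used here. The exons of the other 8 genes overlap no annotated gene.

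The summed level of the 4 Id genes was 73.4, 81.9 and 58.6 FPKM in wild type and 33.4, 26.6 and 35.2 FPKM in Sp8 null. The composition of this pool differed as well. Id2 made up 32.2 to 35.4% of the sum in the wild-type libraries and 41.96 to 47.6% in the null libraries, without overlap. Id1 made up 14.2 to 17.0% in wild type and 9.28 to 12.7% in null, also without overlap. Id3 was the leading Id gene in each wild-type library, at 48.6 to 48.95%, and in null its share of 39.6 to 47.4% was exceeded by that of Id2 in embryos 2 and 3. These shares are descriptions and were not tested.

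**Figure D2:**
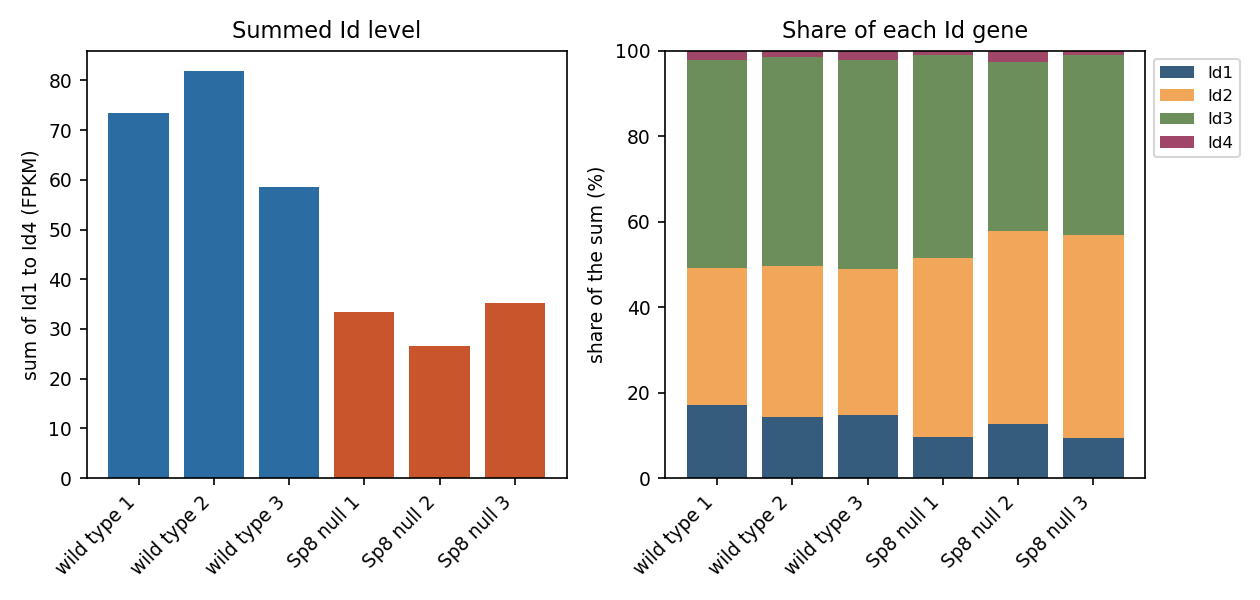
Left, the sum of Id1 to Id4 in FPKM in each library, and right, the share of each Id gene in that sum in percent, for wild-type and Sp8 null embryos 1 to 3. The null sums of 26.6 to 35.2 FPKM lie below the wild-type sums of 58.6 to 81.9 FPKM, and the Id2 share (orange segment) is larger in the null libraries.

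Msx1 and Msx2 encode homeodomain repressors. Msx2 (ENSMUSG00000021469; chromosome 13, 53466884 to 53473074) was the most abundant of the 9 genes in wild type, at 47.3, 48.8 and 44.5 FPKM, and was at 13.9, 13.4 and 13.1 FPKM in Sp8 null. Replicates were tight in both groups, with coefficients of variation of 4.67% and 2.99%. Msx2 fell from 46.8 ± 2.18 to 13.5 ± 0.402 FPKM (SD, 3 embryos each, a log2 difference of -1.72, SE 0.07, adjusted p in limma = 1.62e-05). Msx1 (ENSMUSG00000048450; chromosome 5, 37820485 to 37824583) was at 8.91, 7.91 and 6.07 FPKM in wild type and at 2.28, 2.53 and 3.19 FPKM in Sp8 null. Wild-type embryo 3 was the lowest of its group and null embryo 3 the highest, and the groups stayed apart. Msx1 fell by 1.23 on the log2 scale (SE 0.15, adjusted p in limma = 0.00467). Msx2 made up 84.1 to 87.99% of the summed Msx level in wild type and 80.5 to 85.9% in null, ranges that overlap.

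Bambi (ENSMUSG00000024232; chromosome 18, 3507923 to 3516404) showed the largest relative difference of the 9 genes. It was at 8.90, 8.69 and 7.68 FPKM in wild type and at 0.649, 0.541 and 0.573 FPKM in Sp8 null. All null values were below the 1 FPKM of the filter, far from any wild-type value. Mean FPKM was 14.3 times as high in wild type, and Bambi ranked 20 of 12133 when tested genes were ordered from the lowest log2 fold change (-2.57, SE 0.10, adjusted p in limma = 1.5e-05). Msx2 ranked 54, Id1 88, Id3 112, Msx1 124, Id2 316, Id4 343, Smad6 875 and Smad7 1346 in the same order. The pseudocount moved the log2 fold change of Bambi most among the alternatives, to -3.63 at 0.1.

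The inhibitory Smads were low in both groups and had the smallest differences of the 9 genes on the log2(FPKM + 1) scale, although the ratio of means of Smad6 was close to that of Id2. Smad6 (ENSMUSG00000036867; chromosome 9, 63953076 to 64022059), which acts mainly on BMP receptors, was at 1.47, 1.44 and 1.55 FPKM in wild type and at 0.772, 0.911 and 0.918 FPKM in Sp8 null. The groups did not overlap and each was tight, yet the log2 fold change of -0.41 (95% interval -0.66 to -0.16) did not pass over all genes (adjusted p in limma = 0.0619). It passed when no mean-variance trend was used (adjusted p in limma = 0.0274). Its range over the alternatives was 0.0274 to 0.245. Smad7 (ENSMUSG00000025880; chromosome 18, 75367529 to 75395935), which acts on TGF-beta and BMP receptors alike, was at 2.65, 3.12 and 2.41 FPKM in wild type and at 2.14, 1.77 and 1.95 FPKM in Sp8 null. Wild-type embryo 3 and null embryo 1 came close to each other. The log2 fold change of Smad7 was -0.33 (95% interval -0.60 to -0.06, adjusted p in limma = 0.134), and it stayed above the threshold in each alternative that was run (0.107 to 0.401). The intervals of both lie below 0, and the adjusted p does not show that either gene was the same in the 2 groups.

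**Figure D3:**
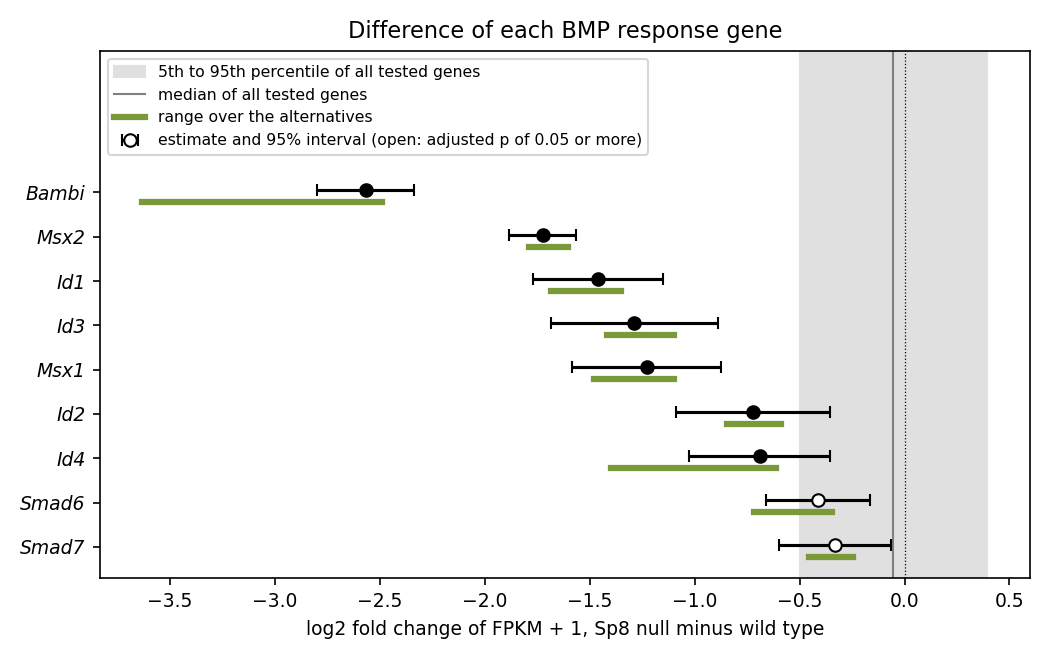
Log2 fold change of FPKM + 1, Sp8 null minus wild type (horizontal axis), for each gene with its 95% interval (black; open circles did not pass an adjusted p of 0.05) and the range over the alternatives that were run (green). The grey band spans the 5th to 95th percentile of all tested genes, -0.50 to 0.40, and the estimates of Smad6 and Smad7 lie inside it while those of the other 7 lie to its left.

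The order of levels changed between the groups. In wild type it ran from Msx2 (46.8 FPKM) through Id3 (34.8), Id2 (24.2), Id1 (10.9), Bambi (8.42), Msx1 (7.63), Smad7 (2.73) and Smad6 (1.49) to Id4 (1.37). The ranges over embryos overlapped for the neighbours Id3 and Id2, Id1 and Bambi, Bambi and Msx1, and Smad6 and Id4, and not for the other neighbours. In Sp8 null the order was Id2 (14.2 FPKM), Id3 (13.7), Msx2 (13.5), Id1 (3.29), Msx1 (2.67), Smad7 (1.95), Smad6 (0.867), Bambi (0.587) and Id4 (0.473). There Id2, Id3 and Msx2 overlapped each other in turn, as did Bambi and Id4. Bambi thus stood above Smad6 and Smad7 in each wild-type library and below both in each null library.

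Ratios between members within a library do not depend on the scaling between libraries, apart from the added 1, and 7 were compared on the log2(FPKM + 1) scale. The Bambi to Smad6 ratio was 2.004, 1.99 and 1.77 in wild type and -0.10, -0.31 and -0.29 in null, a difference of -2.15. Id1 to Id2 went from -1.08 ± 0.19 in wild type to -1.82 ± 0.25 in null (SD, 3 embryos each), a difference of -0.74. Id3 to Id2 differed by -0.57, Id1 to Id4 by -0.77 and Msx2 to Msx1 by -0.50. In these 5 ratios the groups did not overlap, which gives the smallest p that 3 against 3 allows (exact permutation test, two-sided, p = 0.1, Benjamini-Hochberg adjusted p = 0.14 over 7 ratios), so that none could pass 0.05. Id1 to Id3 (difference -0.17, exact p = 0.5) and Smad6 to Smad7 (-0.08, exact p = 0.6) overlapped between the groups. With a pseudocount of 0.1 the groups also overlapped for Id1 to Id4, with a difference of -0.28 (exact p = 0.5), and for Msx2 to Msx1, with -0.31 (exact p = 0.2).

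**Figure D4:**
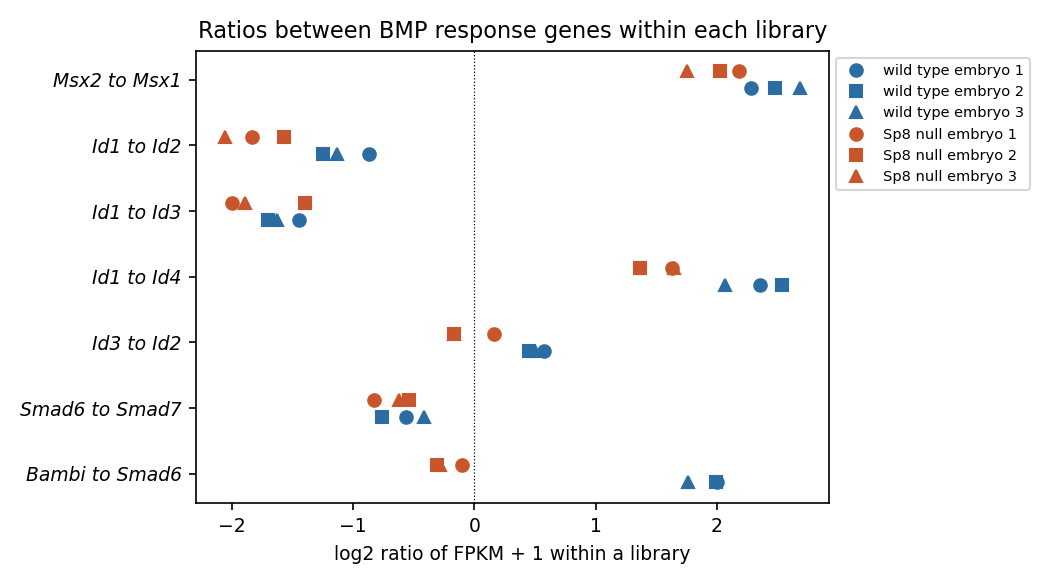
Log2 ratio of FPKM + 1 between members within each library (horizontal axis) for 7 ratios, with wild type in blue and Sp8 null in orange and a symbol for each embryo. The widest gap is that of Bambi to Smad6, from 1.77 or more in wild type to -0.10 or less in null, while Id1 to Id3 and Smad6 to Smad7 are intermingled.

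Within the wild-type group, embryo 3 had the lowest value of 7 of the 9 genes (all but Id4 and Smad6), and it had the highest Sp8 of the 6 libraries. Within the null group no embryo stood out in this way: embryos 1, 2 and 3 were lowest for 3, 4 and 2 genes. Wild-type embryo 3 also had the lowest median-of-ratios scaling factor of its group, at 0.984 against 1.058 and 1.037 for embryos 1 and 2. Its factor was the lowest of that group under the other scalings too. Whether its low values were particular to these genes was not tested.

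The authors' deposited table gave group means of its own for the same genes. Its ratio of Sp8 null to wild-type mean was 0.0712 for Bambi, 0.293 for Msx2, 0.308 for Id1, 0.347 for Id4, 0.356 for Msx1, 0.404 for Id3, 0.596 for Id2, 0.5996 for Smad6 and 0.7404 for Smad7. The order was that of FPKM except that Id2 and Smad6 changed places. The signed fold change in the authors' deposited table ran from -12.3 for Bambi to -1.32 for Smad7. This fold change is not the inverse of the ratio of means: Sp8 had -4.16 at a ratio of 0.0762, and Id4 -2.11 at 0.347. The p-value of the authors' deposited table was under 0.05 for all 9 genes, as it was for 31.3% of tested genes. Smad6 (9.1e-05) and Smad7 (0.000986), which limma did not call on FPKM, were thus listed with small p-values in the authors' deposited table, whose test and adjustment are not given in the sources used here. In the authors' deposited table the means for wild type ranged from 91.3 for Id4 to 4331 for Msx2, and that of Smad6 was 168.

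Other genes of the pathway were read in the same fit to set the response genes beside their inputs. Over the 8 lists, 66 of 96 different genes could be tested, and 11 were called lower and 5 higher, or 24.2% of those tested, against 6.83% of all tested genes. The lists were drawn up with results of these libraries known and hold limb genes, so nothing is read from this share.

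Among the ligands 5 of 11 could be tested and 2 were called lower, against 5.15% of all tested genes. Bmp4, the most abundant BMP ligand here, was at 132, 123 and 122 FPKM in wild type and at 41.1, 32.5 and 39.4 FPKM in Sp8 null, and it fell by 1.72 on the log2 scale (adjusted p in limma = 0.000124). Bmp5 fell from 1.70 ± 0.567 to 0.619 ± 0.124 FPKM (SD, 3 embryos each; adjusted p in limma = 0.0496). It reached 1 FPKM in wild-type libraries only, so its entry into the test already required a difference, and the count of ligands is no support for one. None of 9 tested receptors was called, and Acvr1, a type I receptor, had the smallest p (log2 difference -0.42, adjusted p in limma = 0.0688). Of 5 tested signal-transducing Smads, Smad1 rose from 10.2 ± 0.803 to 15.3 ± 0.636 FPKM (SD, 3 embryos each, a log2 difference of 0.54, adjusted p in limma = 0.0116), and the others did not pass. Smad9, itself a receptor-regulated Smad, was below the filter, at 0.105 to 0.167 FPKM in wild type and 0.0161 to 0.0266 FPKM in null.

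Of 16 extracellular antagonists 6 could be tested, of which 3 were called higher and 1 lower, against 1.68% and 5.15% of all tested genes. Smoc1, a matricellular BMP antagonist, rose from 1.89 ± 0.537 to 12.3 ± 2.09 FPKM (log2 difference 2.21, adjusted p in limma = 0.000479), its relative Smoc2 by 1.05 (adjusted p in limma = 0.0163) and Sostdc1 by 0.58 (adjusted p in limma = 0.0229). Twsg1, which binds BMPs together with chordin, fell by 0.40 (adjusted p in limma = 0.026). Noggin and chordin transcripts (Nog and Chrd) were below 0.05 FPKM in each library. Grem1, an antagonist of the limb mesenchyme, varied widely, from 3.67 to 25.7 FPKM in null and from 1.32 to 8.12 FPKM in wild type. None of 18 tested intracellular regulators, such as Smurf1, Smurf2 and Ski, was called, and Tob2 had the smallest p (log2 difference -0.32, adjusted p in limma = 0.101).

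The other transcription factors known to respond to BMP went both ways. Of 15 tested, 6 were called lower, against 5.15% of all tested genes. The 6 were Dlx2 (-1.95), Dlx1 (-1.76), Dlx5 (-1.05), Atoh8 (-0.83), Tbx3 (-0.81) and Dlx3 (-0.78). Each value is the log2 fold change, and adjusted p in limma lay between 0.0017 and 0.0339. Tfap2a, a factor of surface ectoderm, rose by 0.52 (adjusted p in limma = 0.0163). The list of TGF-beta response genes was read because Smad7 also answers to TGF-beta. Against 5.15% of all tested genes, 2 of its 9 tested genes were called lower. These were Timp3, an inhibitor of metalloproteinases (log2 difference -0.83, adjusted p in limma = 0.00447), and the cell cycle inhibitor Cdkn1a (-0.73, adjusted p in limma = 0.0313). The median log2 fold change of that list was -0.19. None of the 3 E protein genes, which encode the partners of Id proteins, was called, and Tcf12 had the smallest p (log2 difference 0.26, adjusted p in limma = 0.0988). It passed under median-of-ratios (0.0451) and upper-quartile scaling (0.0438).

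Of the 16 called pathway genes, Bmp4, Smoc1, Dlx1, Dlx2, Dlx3, Tbx3 and Timp3 were called in all 23 alternatives. The calls of the other 9 were lost in some, which for each of them included leaving out at least 1 single library. Bmp5 lost its call in 15 of the 19 alternatives that tested it, Atoh8 in 15 of 22 and Smoc2 in 5 of 22. Of 23 alternatives, Twsg1 lost its call in 13, Cdkn1a in 12, Dlx5 and Sostdc1 in 9 each, Tfap2a in 8 and Smad1 in 2. None of these 16 genes changed direction in any alternative.

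**Figure D5:**
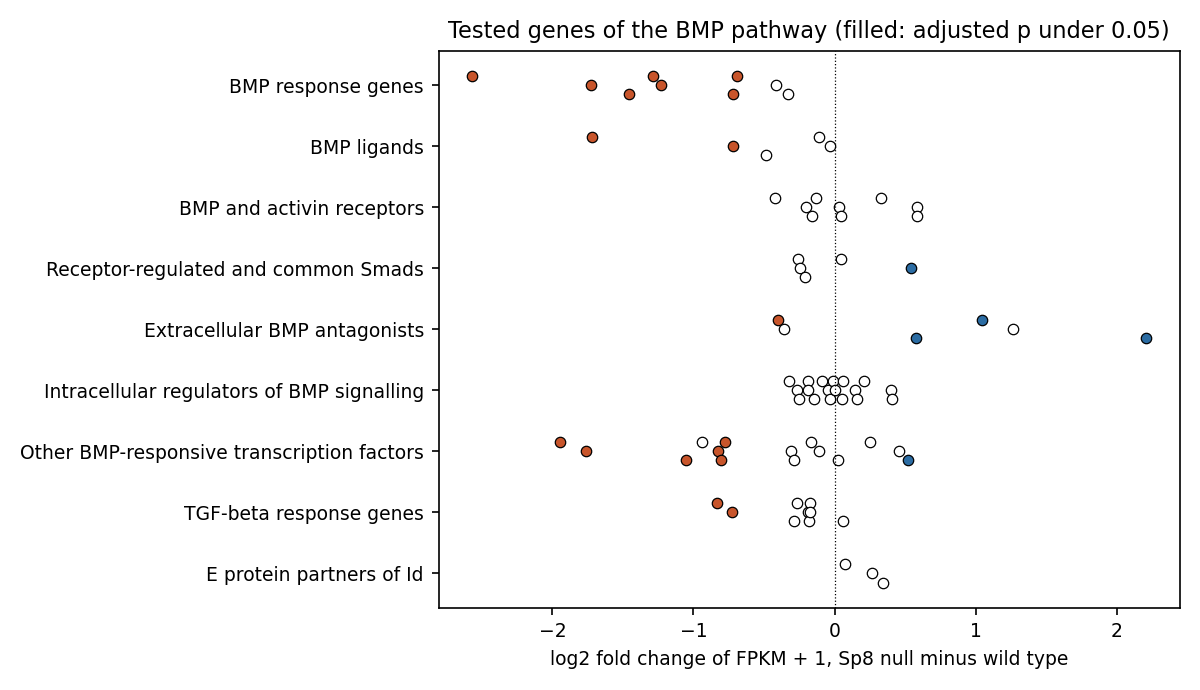
Log2 fold change of FPKM + 1, Sp8 null minus wild type (horizontal axis), for each tested gene of the BMP pathway by list, with filled points for genes called lower (orange) or higher (blue) at an adjusted p under 0.05 and open points for the rest. The 7 called response genes are joined by filled orange points among ligands, antagonists, transcription factors and TGF-beta response genes, and the largest filled blue point is Smoc1 at 2.21.

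The 5 genes whose pattern over the 6 libraries was most like the mean standardized pattern of the 9 members, among 7349 genes whose mean reached 5 FPKM, were Mesdc2 (Pearson r 0.999), Tcf7 (0.998), Hk2 (0.997), a gene without a symbol (ENSMUSG00000097769, 0.996) and Tceb1 (0.996). With 6 libraries in 2 groups such values mostly reflect the difference between the groups. Tcf7, a transcription factor of the Wnt pathway, was at 32.8, 33.0 and 27.0 FPKM in wild type and at 8.99, 7.995 and 10.2 FPKM in null. Hk2, a hexokinase, ranged from 87.2 to 119 FPKM in wild type and from 33.2 to 40.2 FPKM in null. Mesdc2, a chaperone of Wnt co-receptors, ranged from 37.5 to 42.1 FPKM and from 23.7 to 25.6 FPKM. These genes were picked for their likeness to the members, so no test between the groups is given for them.

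Markers of the labelled tissue and of other cells were summed per library in FPKM. The surface epithelium list, which includes Trp63 and Cdh1, summed to 1255 to 1391 in wild type and 1024 to 1318 in null, with Sp8 null embryo 2 the lowest. Of its 20 genes 4 were called lower (Krt17, Epcam, Itga6 and Col17a1) and 1 higher (Tfap2a), against 5.15% and 1.68% of all tested genes. Krt17 and Col17a1 reached 1 FPKM in wild-type libraries only, so these counts are a description. Apical ridge and limb ectoderm genes, some of which respond to BMP themselves, summed to 496 to 534 in wild type and 219 to 275 in null, with 13 of 18 tested genes called lower, against 5.15% of all tested genes. Of these 13, Fgf4, Fgf9 and Rspo2 reached 1 FPKM in wild-type libraries only and passed the filter through that group. The 13 also include Sp8, the gene that defines the groups, and Bmp4, Dlx2, Dlx3 and Dlx5, already counted in the pathway lists. For these reasons the count is a description. Msx and Id genes are also active in limb mesenchyme, whose 18 markers summed to 140 to 207 in wild type and 164 to 301 in null. Much of that sum came from Meis1 (37.9 to 45.4 FPKM in wild type, 29.2 to 41.0 in null) and Meis2 (52.0 to 64.2 and 60.7 to 74.5), whose groups overlapped. The median log2 fold change of the 15 tested markers was 0.67, above the -0.06 of all tested genes. Mean FPKM in null was 429% of wild type for Twist2 and 351% for Col3a1 (adjusted p in limma = 0.052 and 0.163). For both, every null embryo was above every wild-type embryo. It was 49.2% for Pdgfra, with every null embryo below (adjusted p in limma = 0.12). Sp8 null embryo 2 moved the means of Col3a1 (34.4 FPKM, against 10.4 and 7.61 in null embryos 1 and 3) and Pdgfra (19.5, against 6.37 and 6.01). Of 15 tested mesenchymal markers 1 was called, Lmx1b, which was higher in null. Sp8 null embryo 2 and wild-type embryo 1 had the highest mesenchymal sums of their groups, and without both the calls of Id1, Id3, Msx1, Msx2 and Bambi held and those of Id2 and Id4 did not (adjusted p in limma = 0.183 and 0.092). None of the markers was at 0 in every library. Endothelial markers, of which 11 of 12 were under 1 FPKM in every library, summed to 2.50 to 3.64 in wild type and 2.73 to 5.22 in null. Macrophage markers summed to 0.276 to 1.03 in wild type and 1.67 to 3.26 in null, and neural crest markers to 2.71 to 4.01 and 2.205 to 3.60. Erythroid markers ranged from 11.7 to 428 in wild type and from 62.8 to 164 in null. The part of these differences in the levels of the response genes was not tested.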

How the data were processed

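Polyadenylated RNA from 3 Sp8 null and 3 wild-type libraries was analysed from 1 table of the whole series. The authors deposited FPKM per gene and library on Ensembl build 87 gene models, per the file headers, with a status for each estimate. FastQC, SAMtools, TopHat2, DESeq2, Cufflinks and the GRCm38 build are named in the submitters' processing notes, without their roles. The authors' deposited table also held group means (a normalized signal), a signed fold change (a score) and a p-value, used only where named. Groups and embryo numbers came from the sample titles, and columns were matched to samples by sample name.

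Values were taken as log2(FPKM + 1), for genes that reached 1 FPKM in 3 or more libraries, with genotype as the only term, in limma 3.58.1 (R 4.3.3) with a mean-variance trend. P-values were two-sided, with Benjamini-Hochberg adjustment over 12133 genes. The fit was tested on simulated data. Fold changes on this scale understate low genes. Depth is known only relative to wild-type embryo 1. No count test was run, since the values are not counts. Ratios within a library were compared by exact permutation tests (scipy 1.17.1). Coordinates are from GENCODE M21 on GRCm38, which held 49109 of the 49452 identifiers. Promoter windows are from RefSeq on GRCm38.p6. The genes, lists and tests were chosen with earlier results of these data known. Named genes were Sp8, the 9 members, called members of each pathway list or else its member with the smallest p, and the 5 genes of most similar pattern. Genes outside this rule are named as background or were chosen after their values were seen. Among them are Smad9, Nog, Chrd, Grem1, Smurf1, Smurf2, Ski, Trp63, Cdh1, Lmx1b, mt-Tl1, Krt17, Epcam, Itga6 and Col17a1. The rest are Fgf4, Fgf9, Rspo2, Meis1, Meis2, Prrx1, Twist2, Col3a1 and Pdgfra. Alternatives varied the pseudocount, filter, scaling, model terms, variance trend and libraries.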

Additional observations from a re-analysis of the deposited data

How the results depend on the processing

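Over 23 alternatives the 9 genes gave 194 log2 fold changes. All 194 were lower in Sp8 null, 167 were on the same side of the threshold as reported, 26 were no longer past it (13 for Id2 and 13 for Id4) and 1 passed newly (Smad6 with no trend). Id1, Id3, Msx1, Msx2 and Bambi kept their call wherever they were tested, though not every fit tested Bambi, Id4 and Smad6: leaving out a wild-type embryo took them below the filter, and that for a mean of at least 5 FPKM removed Bambi, Id4, Smad6 and Smad7. The number of the 9 called, 7, ranged from 4 (without wild-type embryo 1 or 2) to 6 with one replicate left out. It ranged from 5 to 6 when the tested genes were kept, a choice made after seeing the data, as was leaving out the 2 libraries with the highest mesenchymal sum.

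The number of all genes called, 829, was 342 with no filter, 545 with the first number in each sample name (4 or 5, of unstated meaning) as a term, which also dropped Id2 and Id4, and 325 without the 2 libraries of high mesenchymal sum. It ranged from 213 (without wild-type embryo 2) to 665 (without Sp8 null embryo 3) with one replicate left out, and was 397, 447, 363 and 392 without Sp8 null embryo 1 or 2 or wild-type embryo 1 or 3, and from 316 to 642 with the tested genes kept (394 and 408 without Sp8 null embryo 1 or 2, 445, 316 and 510 without wild-type embryo 1, 2 or 3). For the other pathway genes, 16 calls became 8 with no filter and 10 without those 2 libraries, and ranged from 7 (without wild-type embryo 2; 10 without Sp8 null embryo 1) to 14 with one replicate left out, and from 9 to 14 with the tested genes kept. Fewer samples, and with no filter more genes, enter these fits. The Smad6 to Smad7 ratio of -0.08 ranged from -0.17 to 0.00134 with one replicate left out, so its direction is not defined. Scaling to surface epithelium genes moved the median of all genes by 0.11 on the log2 scale and that of the 9 genes from -1.23 to -1.13. Embryo numbers did not pair the libraries: deviations of same-numbered libraries correlated at -0.16, -0.14 and -0.07, and no sample correlated best with its own number. With the replicate block, 328 genes were called, with 5 of the 9 and 11 of the other pathway genes among them, and Id2 (adjusted p in limma = 0.111) and Id4 (0.108) did not pass.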
